A study of Mus musculus with 12 samples.

Results

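The genes for the platelet-derived growth factor (PDGF) receptors and ligands were followed in cultured mouse embryonic fibroblasts. They are the 6 genes of the deposited count matrix named Pdgfra, Pdgfrb, Pdgfa, Pdgfb, Pdgfc and Pdgfd, chosen by name out of 48709. The cells were wild-type C57BL/6 fibroblasts from embryos of stage E12.5–13.5, and the cell make-up of the cultures was not measured. In siControl the cells received a control siRNA and no stimulus, and in siControl_IL17 the control siRNA and interleukin-17 (IL-17) at 200 ng/mL. The siIMP2 group received an siRNA against IMP2, an RNA-binding protein encoded by Igf2bp2 that recognises methylated adenosine in mRNA, and siIMP2_IL17 received that siRNA and the same dose of IL-17. Medium was changed 24 hours after transfection, and stimulation lasted 8 hours. Each group held 3 RNA-seq libraries, 2 with titles that begin with NA and 1 with a title that begins with RB160. What the prefixes stand for is not given in the labels, and whether the 3 libraries of each group are separate cultures is not said either. The p-values therefore cover library-to-library spread, possibly of a technical kind.

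PDGFs are secreted dimers that bind receptor tyrosine kinases on mesenchymal cells and drive their division and migration. The receptors PDGFR-alpha (Pdgfra) and PDGFR-beta (Pdgfrb) pair up when a ligand bridges them, phosphorylate each other and recruit adaptors that feed the RAS–ERK, PI3K–AKT and STAT pathways. PDGF-A and PDGF-C act mainly through PDGFR-alpha, PDGF-D mainly through PDGFR-beta, and PDGF-B through both. PDGF-A and PDGF-B are cut inside the cell by furin-like convertases, whereas PDGF-C and PDGF-D are secreted with a CUB domain that plasminogen activators and related proteases remove. In the embryo PDGFR-alpha marks broad mesenchyme and fibroblast progenitors, and PDGFR-beta marks mural cells as well as fibroblasts.

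The RefSeq promoter table (build GRCm38.p6) held entries for 4 of the 6 genes, Pdgfra, Pdgfa, Pdgfc and Pdgfd. The stretch before the Pdgfra start is shown because Pdgfra had the largest change of the 6 genes and because C/EBP factors are the transcription factors named in the study's title. It covers the 250 bases before the start, chr5:75152001-75152250 on the plus strand, in lower case with a match to the C/EBP pattern TTGCNNAA in capitals.
Pdgfra: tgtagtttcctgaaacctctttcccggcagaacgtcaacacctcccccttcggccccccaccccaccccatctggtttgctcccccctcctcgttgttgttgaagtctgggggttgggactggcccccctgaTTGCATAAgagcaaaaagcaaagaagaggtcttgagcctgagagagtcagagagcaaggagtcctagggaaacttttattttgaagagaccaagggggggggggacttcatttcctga
The match lies 118 to 111 bases before the RefSeq start. Of 32851 promoter entries cut to the same 250 bases and searched on both strands, 9.56% held this pattern. The entries of Pdgfa, Pdgfc and Pdgfd did not. The Pdgfra stretch held no CCAAT (found in 33.9% of entries), no TATAAA (12.4%) and no GGGCGG (32.7%), so the match overlapped none of them. GGGCGG stood in both entries of Pdgfa, at 60 to 55 bases before the start in one and at 93 to 88 and 86 to 81 bases in the other. TATAAA stood 160 to 155 bases before the start of Pdgfd. These are letter matches, and no binding was measured.

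Sequencing was deep and even. Libraries held 33841054 to 44433699 gene counts, and 1 CPM (counts scaled to library size with TMM factors) stood for 31.9 to 50.9 reads. The knockdown was visible in every library: Igf2bp2 lay between 133.7 and 167.5 CPM in the 6 siControl and siControl_IL17 libraries and between 18.4 and 28.2 CPM in the 6 with the IMP2 siRNA. Among 13 fibroblast markers Col1a1 reached 7143 to 12360 CPM and Vim 2513 to 3395 CPM, while Fap and Dpt stayed under 1 CPM throughout. All 8 endothelial markers were under 1 CPM in every library, and Cldn5 was at 0. Replicates 1 and 2 of each group differed by more than counting noise (chi-square per degree of freedom of 8.72 to 16.2 over genes). Mitochondrial genes took 5.41% to 6.90% of counts in NA libraries and 3.31% to 3.85% in RB160 libraries. Every group held titles of both prefixes, so the prefix was a term in the main fits. The values of each prefix are given as NA and RB160.

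In resting cells of the NA titles the levels per transcript length, in the deposited TPM (abundance scaled per length and per library), fell into a clear order. Pdgfrb led at 61.7 and 64.6 TPM, followed by Pdgfa at 41.7 and 43.4. Pdgfb came next at 24.1 and 24.6 TPM and Pdgfc at 20.3 and 20.2. Pdgfra had 5.16 and 4.90 TPM and Pdgfd 2.53 and 3.08. No neighbours in that order overlapped, but the place of Pdgfb depends on its exon length: with the GENCODE M21 length of 4161 bases in place of the 2918 of the files its mean over 12 libraries is 17.5 instead of 25.0 TPM, under the 22.8 TPM of Pdgfc. The RB160 siControl library had another order, with Pdgfrb at 196.1, Pdgfra at 38.0, Pdgfc at 29.6, Pdgfa at 29.3, Pdgfd at 3.20 and Pdgfb at 3.05 TPM. Pdgfrb was thus the most abundant of the 6 with the control siRNA under both prefixes, and Pdgfra and Pdgfb changed places between the prefixes.

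With the IMP2 siRNA the order in resting NA libraries was Pdgfa (62.6 and 65.1 TPM), Pdgfrb (40.2 and 42.4), Pdgfb (29.1 and 35.6), Pdgfc (22.4 and 23.4), Pdgfd (4.77 and 4.93) and Pdgfra (1.08 and 0.895). Pdgfa had moved above Pdgfrb, and Pdgfra below Pdgfd. In the RB160 siIMP2 library Pdgfrb still led at 140.2 TPM, ahead of Pdgfa at 49.0, Pdgfc at 33.3, Pdgfra at 8.27, Pdgfb at 6.49 and Pdgfd at 3.44 TPM.

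**Figure D1:**
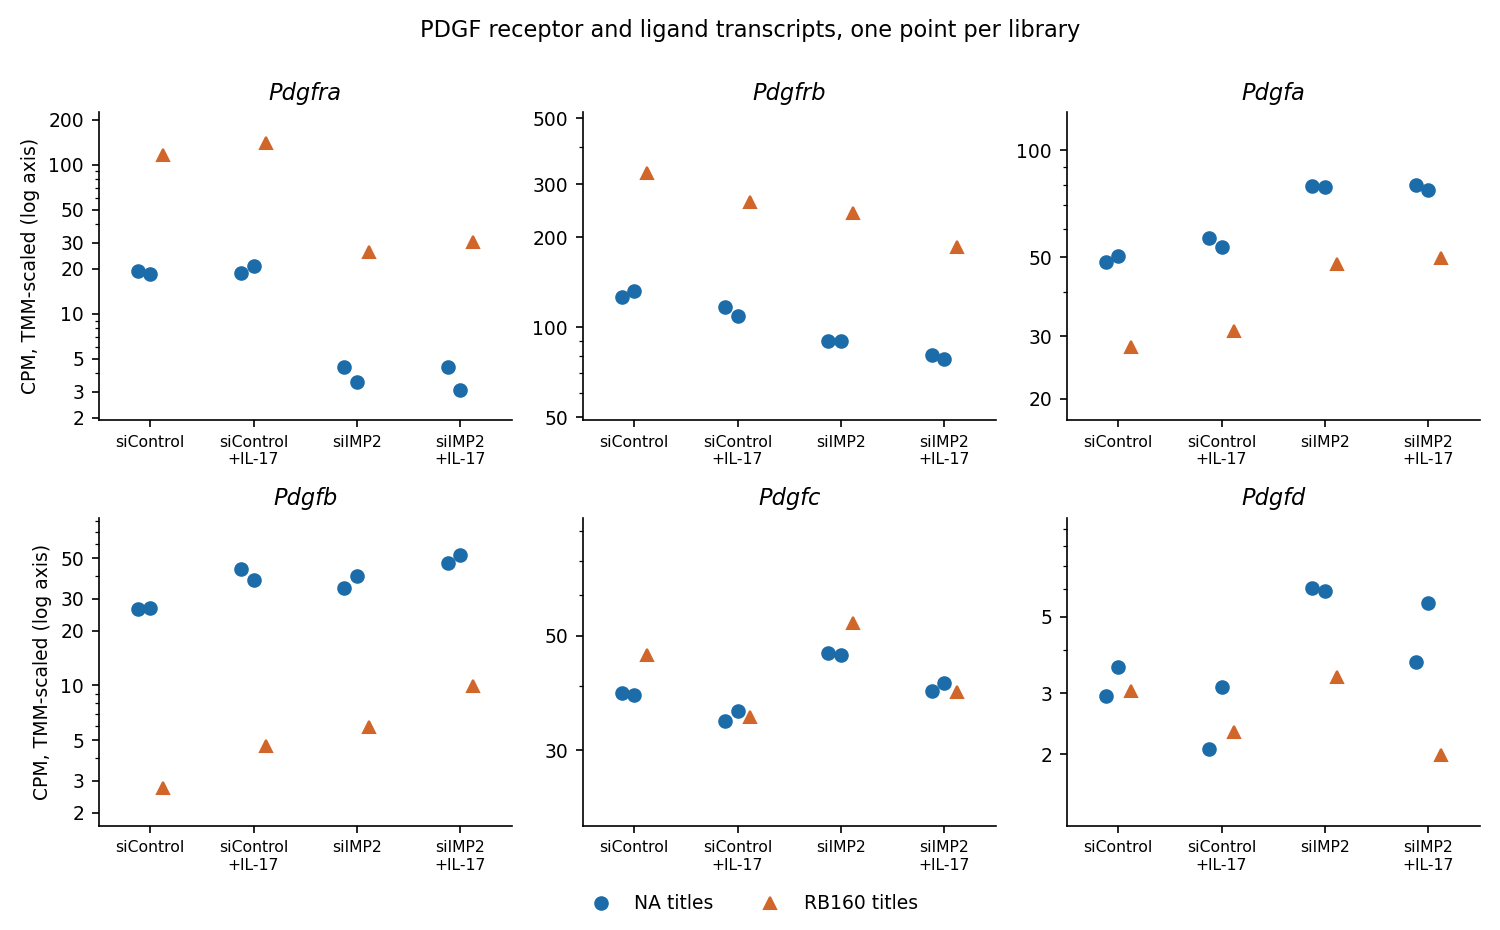
Expression of the 6 genes in CPM (log axis), with 1 point per library, by group; circles are NA titles and triangles RB160 titles. Pdgfra lies at 3.10 to 4.39 CPM in the NA libraries with the IMP2 siRNA and at 18.3 to 21.05 CPM in those with the control siRNA, and the RB160 libraries repeat the step at higher levels.

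The comparison of the siRNAs without IL-17 asks which PDGF genes differ between them in resting cells. Whether a difference came through IMP2 or through another effect of the siRNA was not tested. Both receptors fell and 3 of the 4 ligands rose. In all 5 of the 6 genes passed the test, 3 higher and 2 lower, with a median log2 fold change of 0.43 beside -0.000356 over all genes, and 32.9% of all 13702 genes tested were called in this comparison. With IL-17 present 4 of 6 passed, 2 higher and 2 lower, where 33.4% of all genes were called. A gene counts as called here when edgeR's quasi-likelihood test gave a Benjamini-Hochberg adjusted p below 0.05 over all genes, and fold changes are log2 values with their standard error (SE). In RNA from whole cultures, fewer cells of a kind and less RNA per cell cannot be told apart.

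Pdgfra (ENSMUSG00000029231, mm10 chromosome 5, 75152292 to 75198215, plus strand), the receptor for PDGF-A and PDGF-C, had 19.3, 18.3 and 116.0 CPM in siControl replicates 1 to 3, of which the third is the RB160 library. In siIMP2 it had 4.39, 3.47 and 26.0 CPM. Every NA library with the IMP2 siRNA lay under every NA library with the control siRNA, and the same held for the RB160 libraries, although the group ranges overlap because the RB160 siIMP2 library exceeds the NA siControl ones. The group means were 51.2 ± 56.1 (SD, n = 3) and 11.3 ± 12.7 CPM. Pdgfra fell by 2.23 ± 0.11 on the log2 scale, a level 4.70-fold lower (edgeR adjusted p = 1.54e-07; NA -2.26, RB160 -2.16).

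With IL-17 Pdgfra had 18.9, 21.05 and 140.7 CPM under the control siRNA and 4.38, 3.10 and 30.1 CPM under the IMP2 siRNA. It fell by 2.31 ± 0.11, or 4.95-fold (edgeR adjusted p = 9.01e-08; NA -2.42, RB160 -2.22). The lowest library rested on 99 reads and the highest on 7155. Permuting the siRNA labels within prefixes, 6 libraries against 6, gave an exact two-sided p = 0.00476 for log2 CPM, the smallest that its 420 permutations can give. Libraries with and without IL-17 were permuted together, so a difference with IL-17 counts as spread in this test.

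Pdgfrb (ENSMUSG00000024620, chromosome 18, 61045150 to 61085061, plus strand), the receptor for PDGF-B and PDGF-D, had 126.3, 132.0 and 327.3 CPM in siControl and 89.6, 89.9 and 240.5 CPM in siIMP2. The siIMP2 libraries were lower within each prefix. Pdgfrb fell by 0.50 ± 0.06, or 1.41-fold (edgeR adjusted p = 3.64e-05; NA -0.52, RB160 -0.44). With IL-17 it had 116.7, 109.1 and 261.3 CPM against 80.7, 78.2 and 185.3, and fell by 0.50 ± 0.06 (edgeR adjusted p = 3.37e-05). Its exact permutation p over both conditions was 0.00476, again the smallest possible.

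Since Pdgfra fell more than Pdgfrb, the make-up of the receptor mRNA shifted. The ratio of Pdgfrb to Pdgfra in TPM was 9.49 to 13.2 in the 4 NA libraries with the control siRNA and 33.8 to 47.4 in the 4 with the IMP2 siRNA. In RB160 it was 5.16 without and 3.40 with IL-17 under the control siRNA, and 17.0 and 11.3 under the IMP2 siRNA. The ranges do not overlap within either prefix. Pdgfra made up 7.06% to 9.54% of receptor TPM in the NA libraries with the control siRNA and 2.07% to 2.88% in those with the IMP2 siRNA.

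Pdgfa (ENSMUSG00000025856, chromosome 5, 138976014 to 138997370, minus strand), whose product signals through PDGFR-alpha, had 48.6, 50.5 and 27.9 CPM in siControl and 79.5, 78.6 and 47.9 CPM in siIMP2. It was higher with the IMP2 siRNA within both prefixes. Pdgfa rose by 0.71 ± 0.05, or 1.63-fold (edgeR adjusted p = 2.01e-06; NA 0.67, RB160 0.78). With IL-17 the values were 56.6, 53.6 and 31.0 against 80.1, 77.3 and 49.9 CPM, and Pdgfa rose by 0.57 ± 0.05 (edgeR adjusted p = 8.89e-06). The exact permutation p was 0.00476. The ligand and its receptor thus changed in opposite directions in the same libraries.

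Pdgfb (ENSMUSG00000000489, chromosome 15, 79995900 to 80014808, minus strand), the ligand that binds both receptors, had 26.2, 26.8 and 2.71 CPM in siControl and 34.6, 40.2 and 5.93 CPM in siIMP2. The NA libraries stood far above the RB160 libraries, and in each prefix the siIMP2 libraries were higher. Pdgfb rose by 0.63 ± 0.16, or 1.54-fold (edgeR adjusted p = 0.00796; NA 0.49, RB160 1.11). With IL-17 it had 43.8, 38.1 and 4.66 against 47.0, 52.4 and 9.90 CPM, and rose by 0.50 ± 0.15 (edgeR adjusted p = 0.0205; NA 0.28, RB160 1.08). This second call was lost without siControl_IL17 replicate 2 (edgeR adjusted p = 0.0655), siControl_IL17 replicate 3 (0.0894) or siIMP2_IL17 replicate 3 (0.0715), over a log2 fold change of 0.31 to 0.64 with 1 library left out. The exact permutation p, for which the difference with IL-17 counts as spread, was 0.0286.

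Pdgfc (ENSMUSG00000028019, chromosome 3, 81036416 to 81214040, plus strand), a CUB-domain ligand for PDGFR-alpha, had 38.7, 38.4 and 46.0 CPM in siControl and 46.4, 46.0 and 53.1 CPM in siIMP2. The RB160 library was the highest in each of these 2 groups, and the groups did not overlap, although the highest siControl library (45.96 CPM) lay just under the lowest siIMP2 library (45.99 CPM). Pdgfc rose by 0.24 ± 0.07, or 1.18-fold (edgeR adjusted p = 0.0141), a call lost without siControl replicate 2 (0.0521) or siIMP2 replicate 3 (0.0729). With IL-17 it had 34.2, 35.8 and 34.8 against 39.1, 40.5 and 39.0 CPM, groups that do not overlap, at 0.18 ± 0.07 (edgeR adjusted p = 0.0598). This was called with a floor of 1 CPM in 3 libraries (edgeR adjusted p = 0.0497), with only the 2 groups compared (0.0385), and without siControl replicate 3 (0.0399) or siIMP2_IL17 replicate 3 (0.0278). The exact permutation p, for which the difference with IL-17 counts as spread, was 0.0571.

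Pdgfd (ENSMUSG00000032006, chromosome 9, 6168612 to 6378843, plus strand), the CUB-domain ligand for PDGFR-beta, was the lowest ligand by TPM in 11 of 12 libraries and rested on 78 to 207 reads. It had 2.95, 3.58 and 3.05 CPM in siControl and 6.05, 5.95 and 3.36 CPM in siIMP2. Both NA libraries and the RB160 library were higher with the IMP2 siRNA, by 0.87 in NA and 0.14 in RB160. The log2 fold change was 0.63 ± 0.24 (edgeR adjusted p = 0.0593) and did not pass, but DESeq2 (adjusted p = 0.0402), limma-voom (0.0385) and the NA libraries alone (0.00949) called it. So did edgeR with no filter beyond 1 count (adjusted p = 0.0174) and with only the 2 groups compared (0.0239). The main edgeR fit also called it without siControl_IL17 replicate 1 (adjusted p = 0.0466), siIMP2_IL17 replicate 2 (0.0319), siControl replicate 3 (0.0257) or siIMP2_IL17 replicate 3 (0.0277). With IL-17 the values were 2.07, 3.12 and 2.32 against 3.71, 5.49 and 1.99 CPM, and the prefixes went opposite ways, at 0.81 in NA and -0.22 in RB160 (edgeR adjusted p = 0.144 for 0.50 ± 0.25, and 0.0338 without siIMP2_IL17 replicate 3). The NA libraries alone called it at 0.82 (edgeR adjusted p = 0.0169), and with 1 library left out the value ran from 0.21 without siIMP2_IL17 replicate 2 to 0.75 without siIMP2_IL17 replicate 3. The exact permutation p over both conditions was 0.0429.

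**Figure D2:**
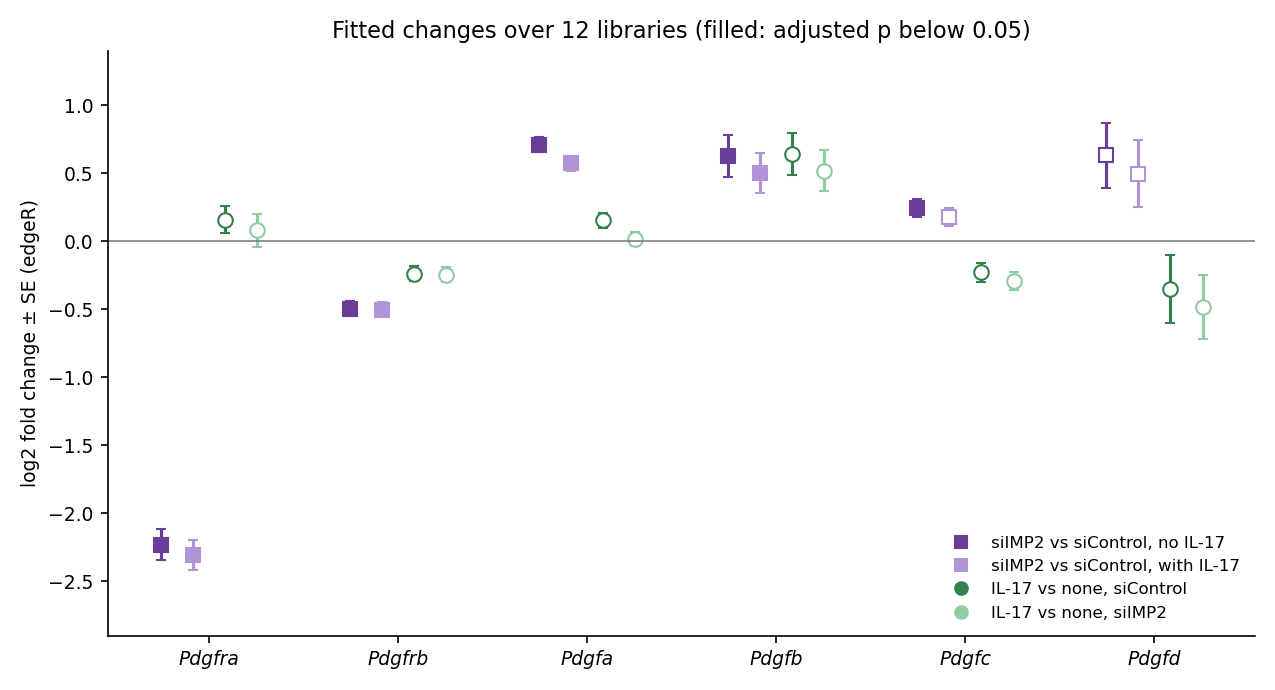
Log2 fold changes with SE from the edgeR fit over 12 libraries for the 6 genes; squares compare the siRNAs and circles compare IL-17 with no stimulus, and filled symbols passed the threshold. Pdgfra stands at -2.23 and -2.31 in the siRNA comparisons, Pdgfa at 0.71 and 0.57, and every IL-17 symbol is open.

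The sums of both sides show the same turn. In the NA libraries without IL-17, summed ligand mRNA went from 88.6 and 91.3 TPM to 118.9 and 129.0 TPM, and summed receptor mRNA from 66.9 and 69.5 TPM to 41.3 and 43.3 TPM. Ligand over receptor TPM was 1.31 to 1.75 in the NA libraries with the control siRNA and 2.88 to 3.59 with the IMP2 siRNA. The RB160 libraries had 0.279 and 0.31 with the control siRNA and 0.621 and 0.752 with the IMP2 siRNA. The siRNA groups did not overlap within either prefix, while the prefixes differed more than the siRNAs did. Among ligands Pdgfa held 44.8% to 52.7% of TPM in NA and 45.0% to 57.8% in RB160, whereas Pdgfb held 24.5% to 37.0% in NA and 4.68% to 12.3% in RB160. The ligand sums, ratios and shares use the Pdgfb exon length of the files and were not recomputed with another. With the GENCODE M21 length the mean of Pdgfb over 12 libraries is 17.5 instead of 25.0 TPM.

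**Figure D3:**
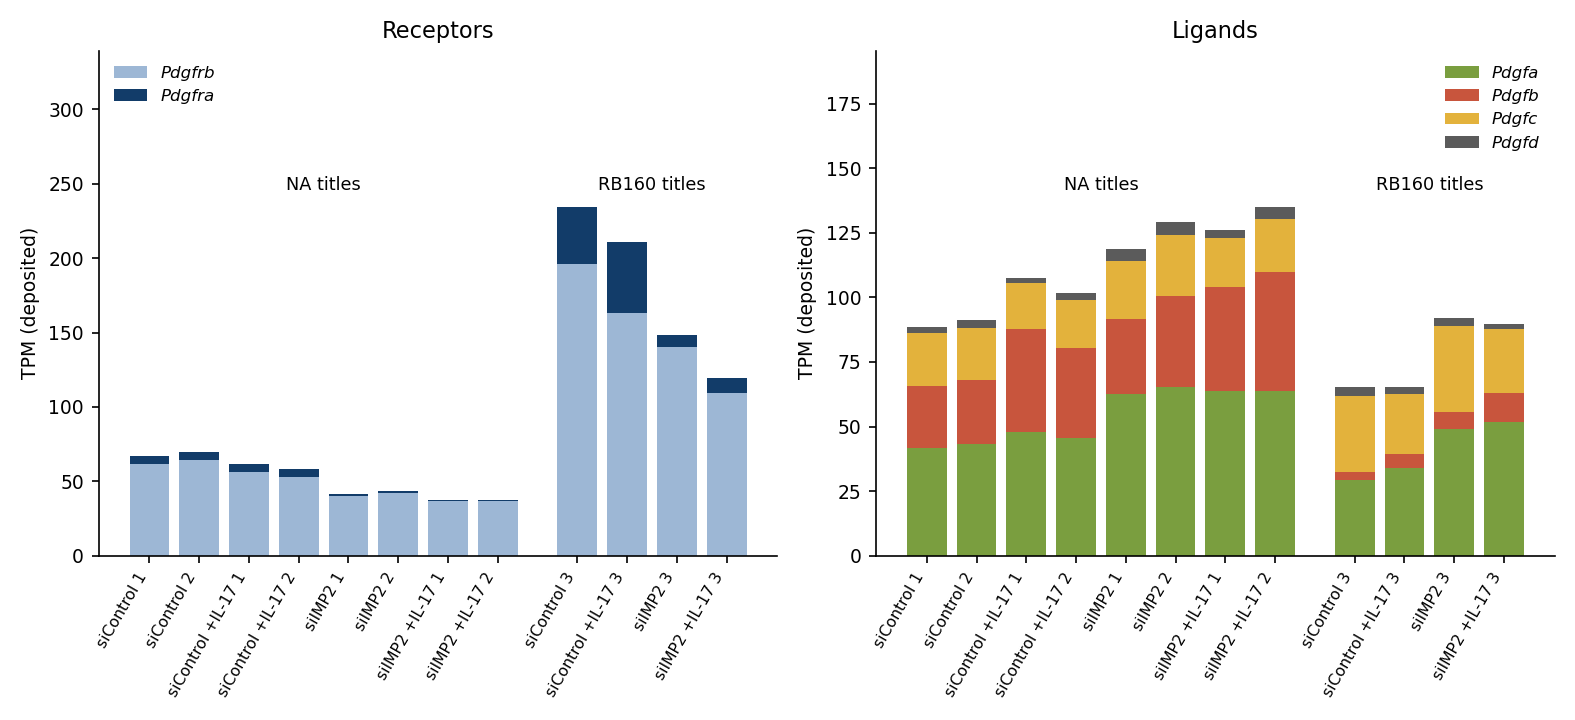
Deposited TPM of the receptors (left) and ligands (right), stacked for each library, NA titles before RB160 titles. Receptor bars are lower and ligand bars higher with the IMP2 siRNA within each prefix, for example 66.9 against 41.3 TPM of receptors in replicate 1 without IL-17.

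The authors' own comparison gave sizes close to these without calling any of the 6 genes. In the authors' deposited table Pdgfra had a log2 fold change of -2.18 (false discovery rate p = 0.436) without IL-17 and -2.26 (0.354) with it. For Pdgfa the authors' deposited table lists 0.70 (false discovery rate p = 0.706) and 0.56 (1.0). That table calls 164 and 170 genes at 0.05 in its siRNA comparisons. An edgeR fit without the prefix term likewise called 0 of the 6 genes in both, with Pdgfra at -2.18 (edgeR adjusted p = 0.462) and -2.26 (0.445). The calls above therefore rest on taking the prefix into account.

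At 8 hours of IL-17 no PDGF gene passed the edgeR test with either siRNA, although some alternative fits called Pdgfb, Pdgfrb or Pdgfc. With the control siRNA edgeR called 0 of 6, where 0.423% of all genes were called. By unadjusted p below 0.05 there were 4 of the 6, beside 1503 of all 13702 genes tested. With the IMP2 siRNA edgeR called 0 of 6 beside 0.511% of all genes, and 3 had an unadjusted p below 0.05, beside 1038 of all 13702. DESeq2 called 2 of the 6 with the control siRNA, Pdgfrb (adjusted p = 0.0142) and Pdgfb (0.00541), where it called 197 of all genes. With the IMP2 siRNA it called 3, Pdgfrb (adjusted p = 0.0122), Pdgfb (0.048) and Pdgfc (0.0151), and 170 of all genes.

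Pdgfb had the largest of these differences. Its CPM was higher with IL-17 in all 3 replicates of each siRNA: 26.2, 26.8 and 2.71 became 43.8, 38.1 and 4.66 with the control siRNA, at 0.64 ± 0.15 (edgeR adjusted p = 0.116, NA 0.62, RB160 0.77). With the IMP2 siRNA the log2 difference was 0.52 ± 0.15 (edgeR adjusted p = 0.255, NA 0.41, RB160 0.73). Pdgfrb lay lower with IL-17, at -0.24 ± 0.06 (edgeR adjusted p = 0.115) and -0.25 ± 0.06 (0.102), as did Pdgfc, at -0.23 ± 0.07 (0.216) and -0.29 ± 0.07 (0.0913). These signs were shared by both prefixes. Pdgfb was called with the control siRNA without siIMP2_IL17 replicate 3 (edgeR adjusted p = 0.0197), and Pdgfc with the IMP2 siRNA without siControl replicate 3 (0.0419). With no filter beyond 1 count edgeR called Pdgfb with both siRNAs (adjusted p = 0.00374 for control, 0.0231 for IMP2). With only the 2 groups compared it did so too (0.00844 and 0.00641), and in the NA libraries alone with the control siRNA (0.0186). In siIMP2 cells edgeR also called Pdgfc with no filter beyond 1 count (adjusted p = 0.0486). With only the 2 groups compared it called Pdgfc (0.0154) and Pdgfrb (0.0243) there. Pdgfra (0.16 and 0.08), Pdgfa (0.15 and 0.02) and Pdgfd (-0.35 and -0.48) had edgeR adjusted p from 0.315 to 1.0. With 1 library left out Pdgfd ran from -0.55 (without siControl_IL17 replicate 3) to -0.12 (without siControl replicate 3) under the control siRNA, and from -0.78 (without siIMP2_IL17 replicate 2) to -0.25 (without siIMP2_IL17 replicate 3) under the IMP2 siRNA. Pdgfra under the control siRNA ran from 0.07 (without siControl replicate 3) to 0.21 (without siControl replicate 1). In siIMP2 cells the signs of Pdgfra and of Pdgfa turned under 2 of 21 alternatives each.

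Whether the IMP2 siRNA changed the response to IL-17 was tested as a difference of differences. Across the 6 genes it ran from -0.14 ± 0.08 for Pdgfa to -0.01 ± 0.08 for Pdgfrb, with edgeR adjusted p = 1.0 after rounding for each, and 0 had an unadjusted p below 0.05. Of all genes 0% were called, 152 had an unadjusted p below 0.05, and DESeq2 and limma-voom also called 0. The siRNA comparisons with and without IL-17 contrast different libraries, but both come from the same fit, with a shared spread and prefix term. Their values stood side by side at -2.31 and -2.23 for Pdgfra, -0.50 and -0.50 for Pdgfrb and 0.57 and 0.71 for Pdgfa.

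The title prefix separated both receptors and Pdgfb by larger log2 differences than either treatment did, but not Pdgfc and Pdgfd. For Pdgfa the prefix difference (-0.76) and the siRNA difference without IL-17 (0.71) were close in size. Pdgfra was 6.87-fold and Pdgfrb 2.46-fold higher in the RB160 than in the NA libraries, at 2.78 ± 0.07 (edgeR adjusted p = 2.62e-11) and 1.30 ± 0.04 (7.43e-11). Pdgfb was 6.94-fold lower (-2.80 ± 0.13, edgeR adjusted p = 1.69e-09), Pdgfa 1.69-fold lower (-0.76 ± 0.04, 7.41e-09) and Pdgfd 1.48-fold lower (-0.57 ± 0.19, 0.0151). The Pdgfd call was lost without siIMP2 replicate 3 (edgeR adjusted p = 0.0784) or siIMP2_IL17 replicate 3 (0.0844). Pdgfc had 0.11 ± 0.05 (edgeR adjusted p = 0.0739), and was called without siControl_IL17 replicate 3 (0.0386) or siIMP2_IL17 replicate 3 (0.0274). In all 5 of 6 genes were called, where 69.5% of all genes were. What differs between the prefixes, in cells, handling or sequencing, cannot be told apart here.

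Since each prefix holds all 4 groups, a fit could ask whether the treatments act alike under both. RB160 holds 1 library per group, so spread among replicates of a group could come only from the NA libraries. The siRNA effect on Pdgfb was 0.73 ± 0.14 larger in RB160 than in NA (edgeR adjusted p = 0.0089, limma-voom 0.0263), and 6.58% of all genes passed this test. The other 5 genes did not pass; Pdgfd had -0.89 ± 0.27 (edgeR adjusted p = 0.07) and Pdgfra 0.14 ± 0.14 (0.595). For the IL-17 effect 0 of 6 passed with edgeR and with limma-voom, where edgeR called 0.307% of all genes. The RB160 levels of Pdgfb rest on 114 to 448 reads per library.

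The per-library files also give a total of reads for each gene, and reads beyond the exon count were taken as the total minus that count. They made up 4.49% to 6.42% of gene reads, and the labels do not say what they hold. All 6 genes passed the filter in these reads too. Without IL-17 10.8% of 12463 genes were called in the siRNA comparison, and 2 of the 6 PDGF genes, Pdgfra and Pdgfa; with IL-17 10.7% of genes were called, and 3 of the 6, Pdgfra, Pdgfrb and Pdgfa. Pdgfra had 23, 17 and 126 such reads in siControl and 7, 9 and 41 in siIMP2, few in NA. Pdgfra fell in them by 1.67 ± 0.28 (edgeR adjusted p = 0.000167), and with IL-17 by 1.56 ± 0.24 (7.74e-05), beside 2.23 and 2.31 in exon counts.

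Pdgfa had 274, 237 and 154 such reads in siControl and 317, 342 and 272 in siIMP2. It rose in them by 0.39 ± 0.11 (edgeR adjusted p = 0.015) and, with IL-17, by 0.42 ± 0.10 (0.00759). Pdgfrb had -0.23 ± 0.10 (edgeR adjusted p = 0.176) without IL-17 and fell by 0.42 ± 0.11 (0.0123) with it. Pdgfb had 0.06 ± 0.19 (edgeR adjusted p = 0.899) and 0.26 ± 0.17 (0.384). Igf2bp2, the target of the siRNA, fell by 2.77 ± 0.15 in exon counts without IL-17 (edgeR adjusted p = 1.58e-07) and had -0.36 ± 0.17 (0.197) in the other reads. The difference between the kinds of read was not tested for any gene.

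**Figure D4:**
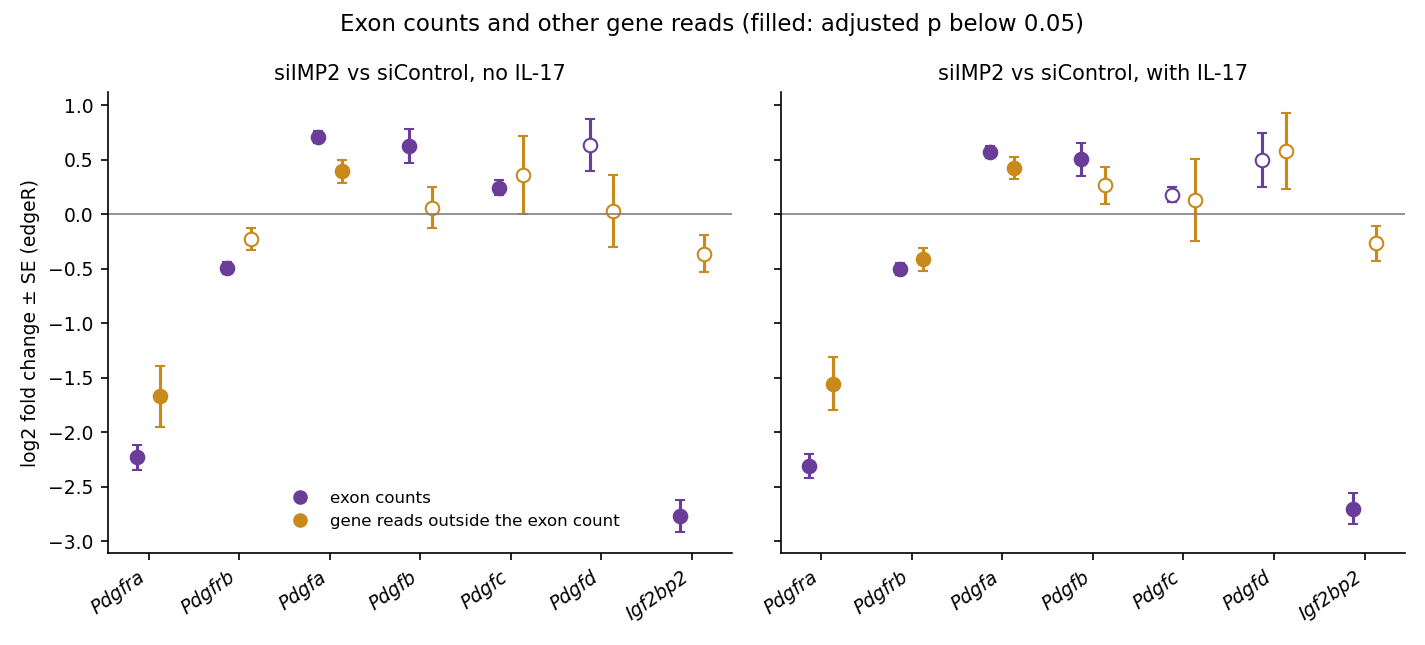
Log2 fold changes with SE for the IMP2 siRNA against the control siRNA in exon counts and in gene reads outside the exon count, without (left) and with IL-17 (right); filled symbols passed the threshold. Igf2bp2 lies at -2.77 in exon counts and -0.36 in the other reads without IL-17, and Pdgfra at -2.23 and -1.67.

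Genes around the receptors were taken from 9 lists of 172 names, and the counts below are for the siRNA comparison without IL-17, against 32.9% called among all genes. Proteases that process PDGFs and related growth factors had 4 of 8 tested members higher and 2 lower, with a median of 0.14. Plat, the tissue plasminogen activator that frees PDGF-C from its CUB domain, had 81.8, 69.5 and 93.0 CPM in siControl and 28.9, 22.6 and 40.9 CPM in siIMP2, lower in all 3. Plat fell by 1.42 ± 0.14 (edgeR adjusted p = 1.36e-05), and the sheddase gene Adam17 fell by 0.57 ± 0.06 (1.36e-05). Plau, the urokinase that acts on PDGF-D, rose by 0.47 ± 0.08 (edgeR adjusted p = 0.000978), Furin by 0.30 ± 0.08 (0.015), the convertase gene Pcsk6 by 0.67 ± 0.13 (0.00138) and Bmp1 by 0.28 ± 0.07 (0.00777). The activators of the CUB-domain ligands thus changed in opposite directions.

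Binding proteins and co-receptors had 3 of 13 higher and 4 lower (median -0.08). Cspg4, the proteoglycan NG2 that binds PDGF-A, had 229.8, 215.8 and 125.0 CPM in siControl and 493.6, 549.1 and 290.0 CPM in siIMP2. It rose by 1.22 ± 0.08 (edgeR adjusted p = 4.92e-07). Pdgfrl, a receptor-like protein of uncertain role, fell by 0.94 ± 0.13 (edgeR adjusted p = 0.000148), Lrp6 by 0.36 ± 0.07 (0.00199) and the neuropilin gene Nrp2 by 0.46 ± 0.10 (0.003). Sparc, which binds PDGF-B in the matrix, rose by 0.29 ± 0.06 (edgeR adjusted p = 0.00257). Lrp1, a co-receptor of PDGFR-beta, had -0.00 ± 0.07 (edgeR adjusted p = 0.967) and Nrp1 -0.08 ± 0.07 (0.433). Nrp1 was the 1 member that IL-17 moved: it fell by 0.39 ± 0.07 in siIMP2 cells (edgeR adjusted p = 0.0381), and had -0.32 ± 0.07 (0.102) in siControl cells.

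Inside the cell the changes ran both ways. Of 24 adaptors and enzymes that dock on the receptors, 9 were higher and 3 lower (median 0.03). The Src-family kinase genes Fyn (1.11 ± 0.08, edgeR adjusted p = 1.6e-06) and Src (0.62 ± 0.06, 1.36e-05) rose, as did the adaptor gene Grb14 (0.45), Pik3cb for a PI3-kinase subunit (0.40) and the kinase gene Abl1 (0.42), at edgeR adjusted p from 1.6e-06 to 0.000273. Of 24 downstream kinases and transcription factors 4 were higher and 5 lower (median 0.02). Stat5a fell by 1.12 ± 0.11 (edgeR adjusted p = 1.4e-05) and Stat3 by 0.95 ± 0.06 (5.49e-07). The ERK kinase gene Map2k1 (0.54) and the serum-response genes Srf (0.60) and Elk1 (0.53) rose, at edgeR adjusted p from 2e-05 to 0.000923.

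Among 12 phosphatases, ubiquitin ligases and endocytic genes that limit the receptors 2 were higher and 2 lower (median -0.03). They were the phosphatase genes Ptprk (0.26, higher) and Ptpn2 (-0.28, lower) and the dynamin genes Dnm2 (0.38, higher) and Dnm1 (-0.56, lower), which act in endocytosis. The count of lower genes was 1 without siControl replicate 1, siIMP2 replicate 2 or siIMP2 replicate 3. Early growth factor response and ERK feedback genes had 8 of 23 higher and 4 lower (median 0.04). Dusp1 (0.68) and Spry4 (0.69), which damp ERK signalling, rose, while the immediate early genes Fos (-1.31), Egr1 (-0.74) and Junb (-0.34) fell, at edgeR adjusted p from 3.43e-05 to 0.000703. Ier3 was the member that IL-17 raised, by 0.74 ± 0.10 with the control siRNA (edgeR adjusted p = 0.011) and by 0.62 ± 0.10 with the IMP2 siRNA (0.02). Between the prefixes 17 of these 23 genes were lower and 4 higher in RB160, with a median of -0.60, where 69.5% of all genes were called.

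Receptors and ligands of related families showed no single direction either. Of 13 tested, 3 were higher and 3 lower (median 0.08), with 1 lower without siControl replicate 3. Vegfa, which is close to the PDGFs in structure, rose by 0.53 ± 0.10 (edgeR adjusted p = 0.00104), as did Il34 (0.60), while Vegfd (-0.87), Kitl (-0.42) and Vegfc (-0.65) fell, at edgeR adjusted p from 1.42e-05 to 0.0372. Vegfa was also raised by IL-17 in siControl cells, by 0.50 ± 0.10 (edgeR adjusted p = 0.0466), and had 0.46 ± 0.10 (0.057) in siIMP2 cells. Kit and Csf1r, the closest relatives of the PDGF receptors, had -0.75 ± 0.34 (edgeR adjusted p = 0.109) and 0.34 ± 0.27 (0.371) at low levels, where Kit stayed under 1 CPM in NA and reached 3.52 CPM in RB160. Of 23 other receptor tyrosine kinases 5 were higher and 4 lower (median -0.13), with 2 lower without siIMP2 replicate 2. Epha4 (1.15), Mertk (0.93) and Igf1r (0.37) rose, and Ephb2 (-0.66) and Ntrk3 (-0.53) fell, at edgeR adjusted p from 1.59e-06 to 0.00155.

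Mesenchymal transcription factors had 1 of 22 higher and 11 lower (median -0.22). Prrx1, a regulator of limb and craniofacial mesenchyme, had 381.4, 339.7 and 449.7 CPM in siControl and 197.5, 180.2 and 260.5 CPM in siIMP2. It fell by 0.89 ± 0.07 (edgeR adjusted p = 2.44e-06), and Gli3 (-0.43), Twist2 (-0.50) and Twist1 (-0.46) fell too, at edgeR adjusted p from 0.000171 to 0.000548. Foxc2 rose by 0.41 ± 0.07 (edgeR adjusted p = 0.000504), a call that uniquely mapped reads did not give. Osr1 was the member called for IL-17, and fell by 0.43 ± 0.08 in siIMP2 cells (edgeR adjusted p = 0.0381), with -0.33 ± 0.08 (0.115) in siControl cells. With IL-17 present the siRNA comparison gave the same list counts of 1 higher and 11 lower.

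**Figure D5:**
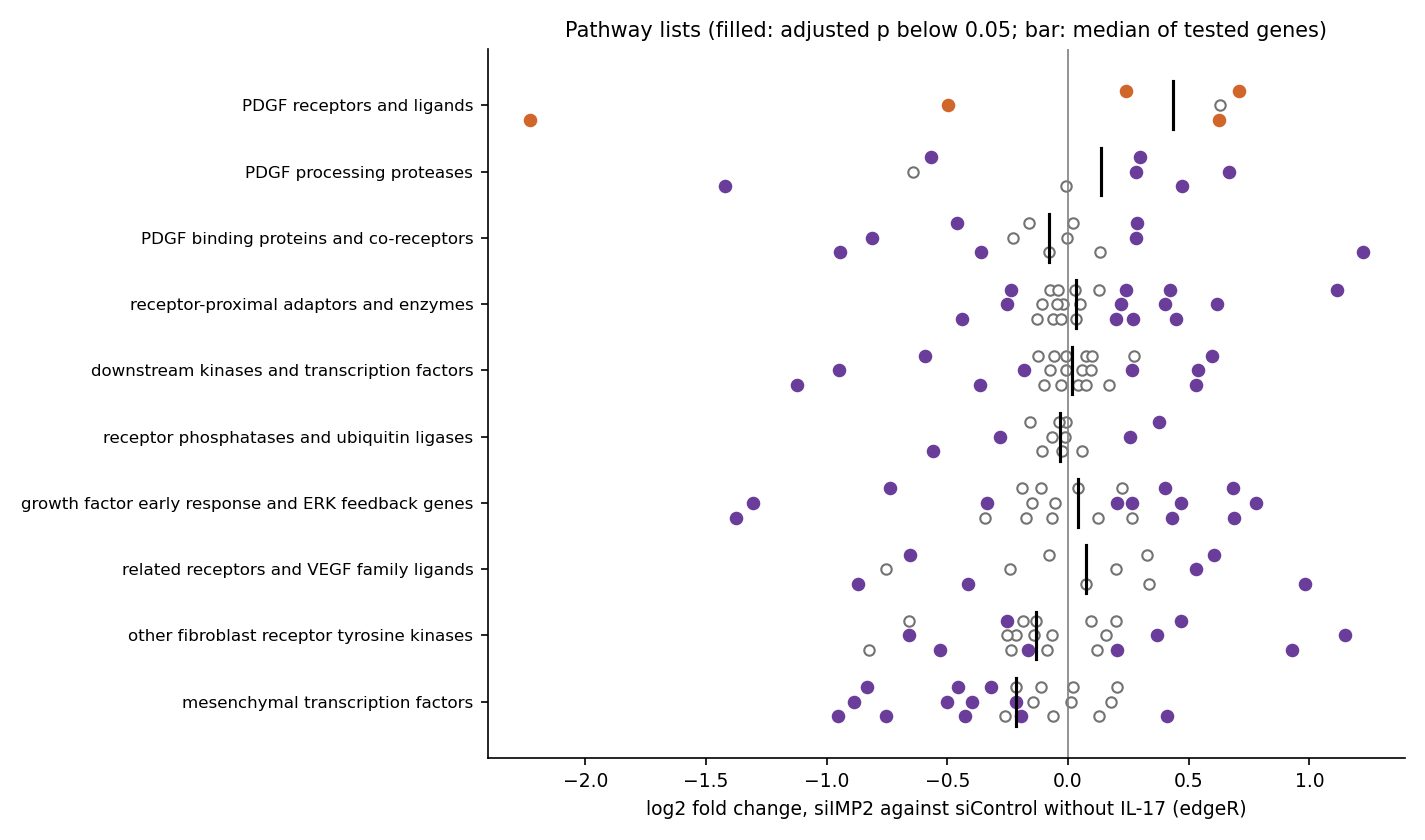
Log2 fold changes between the siRNAs in cells without IL-17 (IMP2 over control), with 1 point per tested gene in each list; filled points passed the threshold and bars mark medians. Among the PDGF genes Pdgfra lies farthest out at -2.23, and most medians of the pathway lists stay near 0, with -0.22 for mesenchymal transcription factors.

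Markers of several cell types were followed in the same libraries. The marker counts below are for the siRNA comparison without IL-17, where 32.9% of all 13702 genes tested were called. Of 8 smooth muscle markers 7 were higher and 0 lower with the IMP2 siRNA (median 1.15). Their summed level was 9023 to 10860 CPM in the NA libraries with the control siRNA and 20030 to 21800 CPM with the IMP2 siRNA, and 4437 to 5902 against 9587 to 11760 CPM in RB160. Acta2 had 2643 to 13020 CPM over the libraries and Tagln 1244 to 5386 CPM, whereas Myh11 had only 0.292 to 4.78 CPM. Acta2 rose by 1.01 ± 0.09 (edgeR adjusted p = 3.91e-06). The 8 pericyte markers, which include Cspg4, summed to 305.1 to 361.2 against 775.8 to 946.7 CPM in NA and to 198.8 to 227.2 against 482.6 to 516.0 CPM in RB160. Of the 5 tested 2 were higher, Cspg4 and Mcam, which hold most of the sum, and 2 lower, Rgs5 (-1.22) and Notch3 (-0.39). Kcnj8, Abcc9 and Higd1b were under 1 CPM in every library.

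Fibroblast markers had 2 of 11 tested higher and 6 lower, beside the same 32.9% of all genes called. Their sum was 18200 to 21170 CPM with the control siRNA and 20460 to 23220 CPM with the IMP2 siRNA in NA. Most of this sum came from Col1a1, Col1a2 and Vim, so it says little about the other markers. Col1a1 rose by 0.32 ± 0.07 (edgeR adjusted p = 0.00411) while Dcn fell by 2.65 ± 0.24 (5.49e-06) and Lum by 2.33 ± 0.44 (0.00134). In RB160 the sums were 19880 to 24310 and 20680 to 26190 CPM. The 7 macrophage markers summed to 3.89 to 6.39 CPM, with Adgre1 and Fcgr1 at 0, and the 6 skeletal muscle markers to at most 0.243 CPM. Chondrocyte or osteoblast markers summed to 206.9 to 235.8 against 176.1 to 186.5 CPM in NA, and to 618.8 to 699.0 against 371.9 to 422.4 CPM in RB160. The oligodendrocyte precursor or neural crest list summed to 4.09 to 4.78 against 15.7 to 18.1 CPM in NA, mostly from Ptprz1, the 1 gene called of 2 tested (1.95 ± 0.13, edgeR adjusted p = 5.49e-07), with Sox10 under 0.1 CPM and Olig1 at 0. Platelet or megakaryocyte markers summed to 18.3 to 24.0 against 10.4 to 13.0 CPM in NA, with Ppbp lower (-3.46) and Gp1bb higher (0.48) among 3 tested and Gp9 at 0, and epithelial markers stayed at or under 3.36 CPM. The part of these markers in the changes of the PDGF genes was not tested.

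Genes whose levels ran most like each PDGF gene were found by Pearson's r of log2 CPM over the 12 libraries, after the mean of each prefix was removed. These libraries share their siRNA and stimulus, and the steps between groups enter r, which is given as a description. For Pdgfra the nearest genes were Car13 (r = 0.997), Prrx1 (0.995), Igf2bp2 (0.995) and Dstyk (0.995), and the most opposed were Dnajb5 (-0.997) and Pkp2 (-0.996). For Pdgfrb they were Tmem119 (0.989), Ctdsp2 (0.988), Papss1 (0.984) and Map3k14 (0.983), with Dcun1d4 (-0.983) and Mmd (-0.982) opposed. Pdgfa ran with Tmem171 (0.989), Psmd8 (0.988), Gadd45b (0.986) and Whrn (0.984), and against Lxn (-0.988) and Anxa4 (-0.987).

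The other ligands ran with different genes. Pdgfb was nearest to Slc20a1 (0.979), Gdpd1 (0.967), the AP-1 gene Fosl1 (0.961) and the cyclooxygenase gene Ptgs2 (0.956), and farthest from Nfia (-0.964) and Foxc1 (-0.962). Pdgfc followed Ccdc80 (0.979), Ptms (0.961) and Tnrc18 (0.949), and ran opposite to the cytokine and chemokine genes Il6 (-0.972) and Cxcl1 (-0.964). Pdgfd, the least precise, followed Ngfrap1 (0.946), Plxdc2 (0.945), Vsig10l (0.942) and Ankrd46 (0.942), against Zfpm2 (-0.94) and Abcc1 (-0.933). Among the 6 genes themselves r was highest for Pdgfra with Pdgfrb (0.859) and lowest for Pdgfra with Pdgfa (-0.956). Pdgfc with Pdgfd (0.808) and Pdgfa with Pdgfb (0.775) were the closest pairs of ligands.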

How the data were processed

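Gene counts from 12 RNA-seq libraries were analysed as deposited, whole-number counts of reads per gene and not normalised, per the file headers. TPM values, exon lengths and total and uniquely mapped gene reads were deposited in the per-library files. The log2 fold changes and the p-values adjusted for false discovery rate in the table of comparisons are the authors' own; their model is not stated in the labels. Reads were assigned on mm10, per the submitters' processing notes. For the aligner, the counter and strand: not given in the sources used here. Hence reads shared with overlapping or antisense genes cannot be told apart. The series table and the 12 per-library files held the same counts, and 0 per-sample count columns were unused.

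The counts entered edgeR 4.0.16 under R 4.3.3, with TMM scaling, filterByExpr (minimum count 10, minimum total 15), and a quasi-likelihood fit over 12 libraries with 4 groups and the title prefix as terms. Benjamini-Hochberg adjustment ran over the 13702 genes tested, with a threshold of 0.05. Separate fits added the interaction of prefix with siRNA and with IL-17, and took the gene reads outside the exon count. The SE was derived from the fold change and its F statistic. Log2 CPM used a prior count of 2. Replicates are numbered by accession: number 3 is the RB160 library of each group, which the prefix term takes up, and numbers 1 and 2 were not taken as pairs. Motifs were searched in RefSeq promoters (GRCm38.p6). The method was tested on simulated counts. Tables used Python 3.11.15 with pandas 2.3.3, and figures matplotlib 3.10.9.

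The 6 genes, the pathway and marker lists and the rule for named genes were chosen with earlier results of these data known. Named genes were the 6 members, a panel of 12, up to 5 called members of smallest p per pathway list in the siRNA comparison without IL-17, list members called for IL-17, and per PDGF gene the 4 most and 2 least correlated genes of mean log2 CPM at least 1. A result that this rule would name is not reported here. Acta2, Tagln, Myh11, Mcam, Rgs5, Notch3, Ptprz1, Ppbp, Gp1bb, Dcn, Lum, Col1a1, Col1a2, Vim and the markers given as absent were picked after their values were seen. Alternatives were RLE factors, DESeq2 1.42.0, limma-voom 3.58.1, all genes with at least 1 count, a floor of 1 CPM in 3 libraries, no prefix term, a fit of NA libraries, a fit of the compared groups, uniquely mapped reads, each library left out, a prior count of 0.5, and exon lengths of GENCODE M21.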

Additional observations from a re-analysis of the deposited data

Results flagged for a closer look

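The effect of the IMP2 siRNA on Pdgfb differed between the title prefixes: its log2 fold change was 0.73 larger in the RB160 than in the NA libraries, by the interaction term of an edgeR fit (adjusted p = 0.0089). The ligand was higher with the IMP2 siRNA under both prefixes, at a lower level in RB160. The siRNA target itself differed too: the log2 fold change of Igf2bp2 was 0.55 higher, so its fall was smaller, in RB160 (edgeR adjusted p = 0.0312). RB160 held 1 library per group, and what sets the prefixes apart was not tested.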

How the results depend on the processing

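No value changed sign with a call under any alternative, and replicate numbers, which follow accession order, were not fitted as a block beyond the prefix term. Without the prefix term the siRNA comparisons called 0 of the 6 PDGF genes in both conditions, in place of 5 and 4, and 321 and 327 of all genes in place of 4505 and 4581. That fit also called 1 and 2 genes for IL-17 with the control and the IMP2 siRNA, in place of 58 and 70, and cut nearly every pathway list, mesenchymal transcription factors from 11 to 2 lower without IL-17. The spread between prefixes then enters the error. For IL-17 with the control siRNA, PDGF genes called were 2 by DESeq2 and 1 each with no filter beyond 1 count, the NA libraries alone or only the 2 groups compared, and 0 to 1 with 1 library left out. All genes called were 197 by DESeq2, 221 with no filter beyond 1 count, 100 with only the 2 groups compared, and 9 to 98 with 1 library left out (9 without siControl_IL17 replicate 3, 10 without siControl replicate 3, 98 without siIMP2_IL17 replicate 3). With the IMP2 siRNA, PDGF genes called were 3 by DESeq2, 2 with no filter beyond 1 count, 3 with only the 2 groups compared and 0 to 1 with 1 library left out. All genes called were 170, 179, 349, 46 in the NA libraries alone, and 13 to 117 with 1 library left out (13 without siIMP2 replicate 3, 117 without siControl replicate 3). The cause was not tested. With IL-17, early response genes called higher were 8, but 4 without siControl_IL17 replicate 3 or siIMP2_IL17 replicate 3, and those called lower were 4, but 8 in the NA libraries alone and 7 without siIMP2_IL17 replicate 3. The 1 mesenchymal factor called higher became 0 in uniquely mapped reads in both conditions, 3 with IL-17 in only the 2 groups compared, and 2 with 1 library left out (siControl replicate 1 in both conditions, siControl replicate 2 or siIMP2 replicate 3 with IL-17). Depth limits Pdgfd most, at 78 to 207 reads.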
